A study of Mus musculus with 24 samples.

Results

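The embryonic and adult globins, the genes for the protein chains of hemoglobin, were followed in mouse embryonic stem (ES) cells that had been differentiated as embryoid bodies. Members were the rows of the deposited exon RPKM table that carry the symbols Hba-x, Hba-a1, Hba-a2, Hbb-y, Hbb-bh1, Hbb-bt or Hbb-bs. RPKM is the number of reads on the exons of a gene scaled to the length of its exons and to the size of the library. The rule found 6 of the 33079 rows of the table. They carry 5 of the 7 symbols, because Hba-a2 labels 2 rows, and Hba-a1 and Hbb-bt label none. Only 2 of the 6 rows, the first Hba-a2 row and Hbb-bs, had a mean over 0.5 RPM (the same value not scaled to length) in a genotype, the minimum for a test.

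Both genotypes were Per2::Luciferase knock-in ES cells, which report the clock gene Per2 as light. WT were the control cells, and KO were Rev-erbα/β-deficient cells, in which exons of Rev-erbβ and then of Rev-erbα had been deleted with CRISPR/Cas9. REV-ERBs are nuclear receptors that bind heme and repress transcription within the circadian clock. Both genotypes received 100 nM dexamethasone, a glucocorticoid that aligns cellular clocks, on day 28 of differentiation, and RNA was taken every 4 h from 12 to 56 h later. Each of the 24 libraries, 12 WT and 12 KO, is 1 genotype at 1 hour and pools the RNA of 3 embryoid bodies, so no hour has a replicate. All KO libraries came from the KO cells, so an effect of the genotype and a difference between the lines cannot be told apart. Gene-level values do not show the exon deletions. Means are given ± SD over the 12 hours of a genotype, and the SD includes any change over time.

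Hemoglobin joins a pair of alpha-type chains with a pair of beta-type chains, each holding a heme group. The first red cells, which arise in the yolk sac, use the embryonic chains from Hba-x (alpha type) and from Hbb-y and Hbb-bh1 (beta type). Later red cells from fetal liver and bone marrow use the adult chains from Hba-a1 and Hba-a2 and from Hbb-bt and Hbb-bs. In each cluster these embryonic genes lie ahead of the adult ones. Red cell genes are read under GATA1 and KLF1, transcription factors that bind GATA and CACCC sequences.

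The alpha-type members lie on chromosome 11 in GRCm38, on the plus strand. Hba-x spans chr11:32276600-32278115 with 597 exonic bases. The first row labelled Hba-a2 (below, the first copy) spans chr11:32283672-32284493, where RefSeq places Hba-a1. The second row labelled Hba-a2 (the second copy) spans chr11:32296489-32297310, the place of Hba-a2 in RefSeq. Each of these copies has 563 exonic bases. The beta-type members lie on the minus strand of chromosome 7. Hbb-bs spans chr7:103826523-103827929 with 637 exonic bases, Hbb-bh1 chr7:103841638-103843162 with 607, and Hbb-y chr7:103851754-103853207 with 616. A row labelled Hbb-b2 at chr7:103812524-103813923 lies at Hbb-bt of RefSeq. It was not a member by its symbol, and its values are given only beside those of Hbb-bs.

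The adult genes are near copies of each other, which limits how reads can be assigned. The coding sequences of Hba-a1 and Hba-a2 differed at 1 of 426 bases, and those of Hbb-bt and Hbb-bs at 1 of 441. Of the 101-base windows of the transcripts, 101 bases being the read length, 56.3% in Hba-a1 were also found in Hba-a2, and 74.2% in Hba-a2 were also found in Hba-a1. For Hbb-bt and Hbb-bs the shares were 54.7% and 62.5%. The authors removed alignments with a mapping quality under 10, which drops reads that match several places, so the levels of the adult rows may be too low and the split between copies is uncertain. Hba-x and Hba-a1 differed at 163 of 426 coding bases and Hbb-y and Hbb-bh1 at 104 of 441, and no window was shared in either pair.

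The 150 bases before the start of 4 genes are shown because they differ between the embryonic and adult members of each cluster (RefSeq, GRCm38.p6, read 5′ to 3′ on the strand of the gene, each run ending at the base before the start). Capitals mark, on either strand, TATAA (the TATA box), CCAAT (a common promoter element bound by NF-Y), CACCC (bound by KLF1), AGATAA (bound by GATA factors), its variant TGATAA (bound by them as well) and AGGTCA (bound by many nuclear receptors, REV-ERBs among them).
Hba-x (chr11:32276450-32276599, + strand): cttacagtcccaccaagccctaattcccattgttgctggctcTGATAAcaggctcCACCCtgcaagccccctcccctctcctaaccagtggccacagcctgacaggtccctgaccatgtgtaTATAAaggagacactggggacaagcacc
Hba-a1 (chr11:32283522-32283671, + strand): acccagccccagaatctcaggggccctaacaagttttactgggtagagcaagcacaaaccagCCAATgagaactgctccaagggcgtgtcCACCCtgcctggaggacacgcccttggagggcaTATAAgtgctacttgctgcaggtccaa
Hbb-y (chr7:103853208-103853357, - strand): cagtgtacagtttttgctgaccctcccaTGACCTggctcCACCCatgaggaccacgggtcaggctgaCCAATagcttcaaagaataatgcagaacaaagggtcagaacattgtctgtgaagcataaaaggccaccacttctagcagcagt
Hbb-bs (chr7:103827929-103828078, - strand): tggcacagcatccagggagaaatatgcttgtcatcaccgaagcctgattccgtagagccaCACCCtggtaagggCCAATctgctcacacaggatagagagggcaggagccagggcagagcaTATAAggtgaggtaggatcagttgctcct

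The TATA box began 28 bases before the start in Hba-x, 27 in Hba-a1 and 29 in Hbb-bs, and these letters did not occur in the window of Hbb-y. CCAAT was found in Hba-a1, Hbb-y and Hbb-bs and not in Hba-x. CACCC occurred in all 4, at 95 bases before the start in Hba-x, 60 in Hba-a1, 111 in Hbb-y and 90 in Hbb-bs. TGATAA occurred in Hba-x, 108 bases before the start, and the reverse complement of AGGTCA in Hbb-y, 122 bases before it. AGATAA occurred in none of them. The share of 32851 RefSeq promoter windows of the same length with each sequence was 14.15% for TATAA, 24.5% for CCAAT, 37.43% for CACCC, 5.647% for AGATAA, 4.453% for TGATAA and 8.584% for AGGTCA. The windows of Hba-a1 and Hba-a2 were identical over 147 aligned bases, while those of Hbb-bt and Hbb-bs were equal at 71.1% of 149. A match describes the letters only. Hbb-bh1 had no entry.

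The libraries held from 6183500.5 to 10287969 fragments on exons, which were 44.7% to 46.0% of their totals. Scaled back by the length of the exons and the size of the library, 100% of the RPKM values came out as multiples of 0.5 fragment (tolerance 0.005), so the fragments behind each level are known. Over whole transcriptomes, the mean correlation of a library with the others of its genotype ranged from 0.981 to 0.990. The median summed RPKM of 10 macrophage and leukocyte markers was 497 in WT and 629 in KO. For 10 yolk sac and visceral endoderm markers it was 307 and 228. Single markers differed widely, with WT means from 1.99 to 341 RPKM in the first list and from 0.831 to 165 in the second. The KO means ran from 1.94 to 421 and from 0.743 to 174 RPKM. The pluripotency marker Nanog was at 0.198 ± 0.185 RPKM in WT and 0.164 ± 0.112 in KO (SD, n = 12).

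Globin RNA was close to 0 in most libraries and high in 1 library of each genotype, WT at 32 h and KO at 36 h. In WT the 6 rows together held 506 fragments over the 12 libraries, and 424 of these, or 83.8%, were in the 32 h library. In KO they held 164.5 fragments, and 121.5, or 73.9%, were in the 36 h library. Relative to library size the WT 32 h library had 26.6 RPM of globin (exact Poisson 95% interval 24.2 to 29.3) and the KO 36 h library 7.45 RPM (6.19 to 8.90). The second highest libraries, WT at 52 h and KO at 16 h, had 2.11 and 0.806 RPM, and the medians were 0.153 RPM in WT and 0.114 in KO. No globin fragment was found in 3 WT and 4 KO libraries, and 7 libraries of each genotype held at most 3. Intervals cover counting error only. In bulk RNA such as this, fewer cells of a type and less RNA per cell cannot be told apart.

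Hba-x, the embryonic alpha-type chain, was near the detection limit in every WT library. Its level in WT ranged from 0 to 0.0960 RPKM with a median of 0, which corresponds to 1 fragment at most. In KO it ranged from 0 to 0.771 RPKM with a median of 0. The highest value was that of the 36 h library, with 7.5 fragments, and no other KO library had more than 1. The means were 0.0190 ± 0.0366 RPKM in WT and 0.0825 ± 0.219 in KO (SD, n = 12), and the KO mean was 0.0199 without 36 h.

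Hbb-bh1, an embryonic beta-type chain, was detected in 2 WT and 5 KO libraries. Its WT levels ranged from 0 to 0.286 RPKM, the highest at 16 h with 3.5 fragments. Its KO levels ranged from 0 to 0.758 RPKM, the highest at 36 h with 7.5 fragments. Both medians were 0. The means were 0.0280 ± 0.0826 RPKM in WT and 0.0824 ± 0.215 in KO (SD, n = 12), and the KO mean was 0.0210 without 36 h. Hbb-y, the other embryonic beta-type chain, never exceeded 1.5 fragments in a library. Its levels lay between 0 and 0.121 RPKM in WT and between 0 and 0.149 RPKM in KO, with means of 0.0174 ± 0.0367 and 0.0323 ± 0.0590 (SD, n = 12). The ranges of WT and KO overlapped for the 3 embryonic genes, and none passed the minimum for a test.

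**Figure D1:**
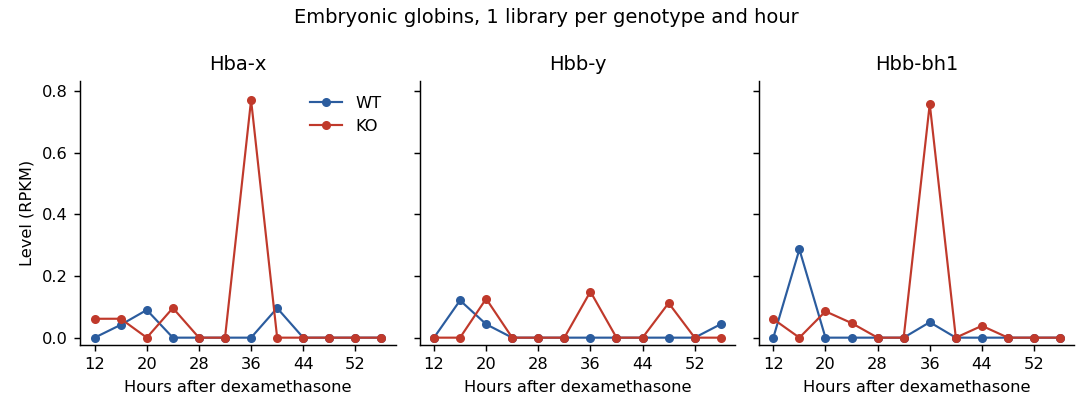
Level of Hba-x, Hbb-y and Hbb-bh1 in RPKM (y axis) against hours after dexamethasone (x axis), where each point is 1 library, with WT in blue and KO in red. Hba-x at 0.771 RPKM and Hbb-bh1 at 0.758 RPKM stand out in the KO 36 h library, while Hbb-y stays at or below 0.149 RPKM.

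The first copy of Hba-a2 had the most widespread signal of the adult genes and was above 0 in 9 WT and 7 KO libraries. Its WT levels ranged from 0 to 19.4 RPKM with a median of 0.198. The highest was at 32 h, with 173.5 fragments, followed by 1.92 RPKM at 52 h and 0.882 at 16 h. Its KO levels ranged from 0 to 4.41 RPKM with a median of 0.0437. The highest was at 36 h, with 40.5 fragments, followed by 0.780 RPKM at 16 h and 0.639 at 56 h. The ranges of the genotypes overlapped, and at the same hour KO was lower than WT at 7 hours and higher at 4. The means were 1.94 ± 5.51 RPKM in WT and 0.542 ± 1.25 in KO (SD, n = 12). Without the highest library of each genotype they were 0.361 and 0.190.

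The second copy was above 0 in 3 libraries of each genotype. Its level was 4.57 RPKM in the WT 32 h library with 41 fragments, 0.348 at 52 h and 0.0952 at 20 h, and 0 in the remaining WT libraries. In KO it was 1.14 RPKM at 36 h with 10.5 fragments, 0.102 at 24 h and 0.0456 at 56 h. The means were 0.418 ± 1.31 RPKM in WT and 0.108 ± 0.328 in KO (SD, n = 12), and 0.0403 and 0.0134 without the highest library of each. Of the fragments on both copies, the first took 80.9% in the WT 32 h library, 84.6% in the WT 52 h library and 79.4% in the KO 36 h library, so the split was similar in the 3 libraries with the most globin.

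Hbb-bs, the adult beta-type chain, had the highest level of any member in a single library. Its WT levels ranged from 0 to 20.7 RPKM with a median of 0. The highest was at 32 h, with 209.5 fragments, followed by 1.31 RPKM at 52 h, and only the 16 h and 20 h libraries were otherwise above 0. Its KO levels ranged from 0 to 5.20 RPKM with a median of 0. The highest was at 36 h, with 54 fragments, followed by 0.517 RPKM at 16 h and 0.403 at 56 h. The ranges overlapped, and KO was higher than WT at 5 hours and lower at 3. The means were 1.88 ± 5.92 RPKM in WT and 0.542 ± 1.48 in KO (SD, n = 12), and 0.170 and 0.119 without the highest library of each. The row Hbb-b2 followed the same libraries, with 1.30 RPKM and 13 fragments in WT at 32 h and 0.587 RPKM and 6 fragments in KO at 36 h, and at most 0.5 fragment elsewhere.

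**Figure D2:**
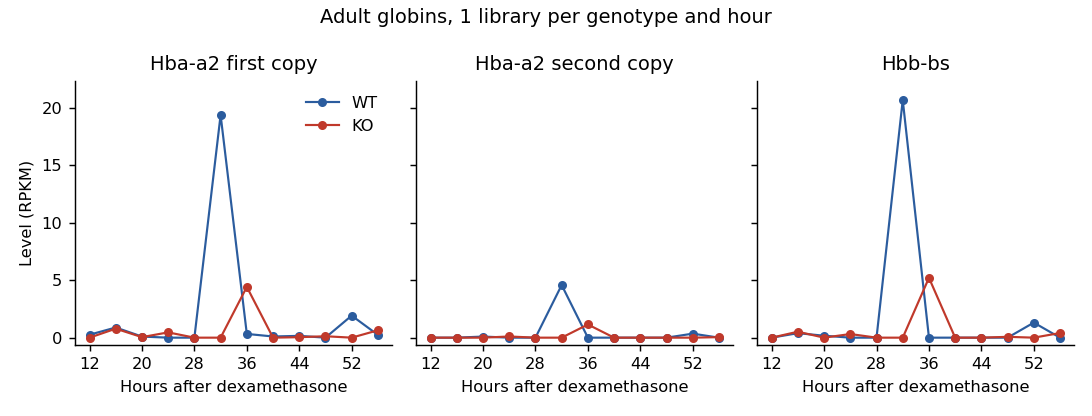
Level of the adult globin rows in RPKM (y axis) against hours after dexamethasone (x axis), where each point is 1 library, with WT in blue and KO in red. In each panel the WT 32 h library is highest (19.4, 4.57 and 20.7 RPKM) and the KO 36 h library next highest (4.41, 1.14 and 5.20 RPKM).

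In the order of mean level the adult rows came first in both genotypes and the embryonic rows last. In WT the order was the first copy of Hba-a2, Hbb-bs, the second copy, Hbb-bh1, Hba-x and Hbb-y. In KO Hbb-bs and the first copy both had 0.542 RPKM, and the second copy, Hba-x, Hbb-bh1 and Hbb-y followed. Without KO 36 h the order in KO turned for the second copy, whose mean of 0.0134 RPKM was below those of Hba-x (0.0199), Hbb-bh1 (0.0210) and Hbb-y (0.0217). The SD exceeded the mean for every member in both genotypes, so no neighbours in either order differed by more than their spread.

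Alpha-type and beta-type RNA were at similar levels per length in the libraries with the most globin. The summed RPKM of the Hba-a2 copies was 1.16 times that of Hbb-bs in the WT 32 h library and 1.07 times in the KO 36 h library. It was 1.73 times in the WT 52 h library, which had 43 globin fragments in all. Hbb-b2 was not included, and reads shared between copies may be missing on both sides, to an extent that was not measured.

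The libraries with the most globin differed in how much of it was embryonic. In the WT 32 h library the 3 embryonic genes had 0 of 424 globin fragments (Clopper-Pearson 95% interval 0% to 0.866%). There 3 fragments would be a share of 0.708%. In the KO 36 h library they had 16.5 of 121.5 fragments, or 13.6% (Clopper-Pearson 95% interval 8.33% to 21.4%). For the intervals of single libraries the fragments were rounded up to whole numbers, while the shares were not rounded in this way. In the WT 16 h library, with 20.5 globin fragments, the share was 26.8% (11.3% to 52.2%), and in the KO 16 h library, with 11, it was 4.55% (0.230% to 41.3%). The WT 52 h library had 0 of 43 (Clopper-Pearson 95% interval 0% to 8.22%), where 3 fragments would be 6.98%. The intervals of WT 32 h and KO 36 h do not overlap, but this compares 2 libraries and not the genotypes, and no interval separates the WT and KO libraries at 16 h. Over all libraries 9 of 506 fragments were embryonic in WT (1.78%) and 24 of 164.5 in KO (14.6%). Without WT 32 h the WT share was 9 of 82 (10.98%, Clopper-Pearson 95% interval 5.14% to 19.8%, fragments not rounded). Without KO 36 h the KO share was 7.5 of 43 (17.4%, 7.59% to 32.1%, also not rounded). The low WT share over all libraries thus rests on WT 32 h, and the intervals without these libraries overlap.

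No difference between KO and WT was called in the 2 members over the minimum. Both passed it only through WT, where 83.8% of the globin fragments were in the 32 h library. No conclusion about the globins is therefore drawn from these tests. Levels were compared with limma on log2(RPKM + 0.1), a scale that understates the change of low genes, with Benjamini-Hochberg adjustment over all 15112 genes above the minimum. The log2 difference of the first copy of Hba-a2 was −0.67 (SE 0.78, 95% interval −2.28 to 0.94), with a limma adjusted p of 0.559. That of Hbb-bs was −0.14 (SE 0.82, interval −1.83 to 1.54), with a limma adjusted p of 0.917. Thus 0 of 2 members were called, where 25.9% of all genes were called and the median log2 difference over all genes was −0.013. The intervals span both directions, so changes within them were not detectable with these libraries.

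The difference between the genotypes depended on single libraries. Without WT 32 h and KO 36 h the log2 difference was −0.54 for the first copy of Hba-a2 (limma adjusted p = 0.508) and 0.02 for Hbb-bs (0.978). Leaving out both 32 h libraries gave −0.040 and 0.54, and leaving out both 52 h libraries gave −0.34 and 0.19. Leaving out both 36 h libraries gave −1.04 and −0.68. The direction for Hbb-bs thus depended on which libraries were included. A two-sided permutation test of mean RPKM gave p = 0.596 for the first copy and p = 0.689 for Hbb-bs. The same test gave p between 0.472 and 0.672 for the other 4 rows. Those 4 rows were under the minimum and at 0 in most libraries, so no conclusion is drawn from their p-values.

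No trend over time and no 24 h rhythm was called in the 2 members over the minimum, which passed it through WT only. The log2 slope of the first copy of Hba-a2 was 0.13 per 24 h in WT (limma adjusted p = 0.966) and 0.070 in KO (0.979), and that of Hbb-bs was −0.083 in WT (0.979) and 0.062 in KO (0.982). Slopes were called for 3.16% of all genes in WT and 3.84% in KO. The log2 amplitude fitted to a 24 h wave was 1.61 in WT for the first copy (adjusted p = 0.703) and 1.32 for Hbb-bs (0.787), and 0.85 and 0.97 in KO (0.941 and 0.934). Without WT 32 h and KO 36 h the amplitudes were 0.85 and 0.23 in WT and 0.21 and 0.080 in KO. A rhythm was called for 0.0463% of all genes in WT and 0.0728% in KO. No difference in slope or rhythm between the genotypes was called for any gene with limma, where 1110 and 729 genes had an unadjusted p under 0.05.

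The first copy of Hba-a2 and Hbb-bs, the 2 members over the minimum, were highest in the same library of each genotype. Both passed the minimum only through WT, where the 32 h library held most of the globin. No conclusion is therefore drawn from the p-values of their correlation. Hbb-bs was above 0 in 4 WT and 5 KO libraries. Over the 12 KO libraries, log2(RPKM + 0.1) of the first copy and of Hbb-bs had a Pearson r of 0.987 (permutation p = 3e-05, adjusted over 4 values 6e-05) and a Spearman rho of 0.930 (permutation p = 2e-05, adjusted 6e-05). Without the libraries farthest from the median, 36 h and 16 h, r was 0.981. In the KO libraries then left, Hbb-bs was above 0 only at 24 h, 48 h and 56 h, with 3.5, 1 and 5 fragments. This r thus rests on few fragments. Over the 12 WT libraries r was 0.929 (permutation p = 0.00075, adjusted 0.001) and rho 0.658 (permutation p = 0.0227, adjusted 0.0227). Without WT 32 h and 52 h r fell to 0.558 and rho to 0.315, so the WT relation rests largely on those libraries. Many of the remaining values are 0 or a few fragments.

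Genes whose pattern over the 24 libraries was most like that of the adult globins were sought after subtracting the genotype means, among genes of at least 1 RPKM. For the first copy these were Hbb-bs (r = 0.95), Vtn (0.75), Doc2g (0.67), Habp2 (0.67) and Prpf40b (0.67). For Hbb-bs these were the first copy (0.95), Vtn (0.71), Doc2g (0.66), Igflr1 (0.65) and Jak3 (0.64). Vtn encodes vitronectin, a plasma and matrix protein made by the liver. Its level was 3.96 RPKM in the WT 32 h library, and 3.90 in the highest of the other WT libraries. In the KO 36 h library Vtn was at 1.70 RPKM, below the 3.29 of another KO library, so it did not share the lone peak of the globins. Without WT 32 h and KO 36 h its r was 0.78 with the first copy and 0.76 with Hbb-bs. The second copy had an r of 0.85 with the first copy and 0.93 with Hbb-bs, while the embryonic rows had an r of 0.23 to 0.46 with the adult ones. These values are descriptions, since all genes share the same libraries.

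Few genes peaked in both libraries that held the globin. In all, 4 of the 33079 rows were at least 0.3 RPKM in WT 32 h and KO 36 h and more than 2 times as high as in any other library of the genotype in each, and all are globins: both copies of Hba-a2, Hbb-bs and Hbb-b2. These limits were set after the values were seen. With a minimum of 0.1 RPKM there were 5 rows, the added one being Slc4a1, and with no minimum there were 9, of which 4 were globins.

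The next question was whether other genes of red cells stood out in the same libraries. The genes named here were chosen after their values were seen. Slc4a1, the anion exchanger of the red cell membrane, had 24 fragments in the WT 32 h library and at most 1 in any other WT library. It had 9 fragments in KO 36 h and at most 3, at 56 h, elsewhere in KO. Alas2, the first enzyme of heme synthesis in red cells, had 28 fragments in WT 32 h against 3.5 to 16 in the other WT libraries, the 16 being at 52 h. In KO 36 h it had 14 against 2 to 10.5. Epb42, a protein of the membrane skeleton, had 3.5 fragments in WT 32 h and 2 in KO 36 h, and at most 0.5 elsewhere.

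Gata1 and Klf1 did not follow the globins in both genotypes. Gata1 had 5 fragments in WT 32 h and at most 1 in other WT libraries, but 0.5 in KO 36 h, below the 4 of KO 24 h. Klf1 had 3.5 fragments in WT 32 h and 2 in KO 36 h, within its range of 0.5 to 6.5 in the other libraries. Slc4a1 had an r of 0.83 with the first copy of Hba-a2 and 0.87 with Hbb-bs over the 24 libraries, and 0.61 and 0.54 without WT 32 h and KO 36 h.

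**Figure D3:**
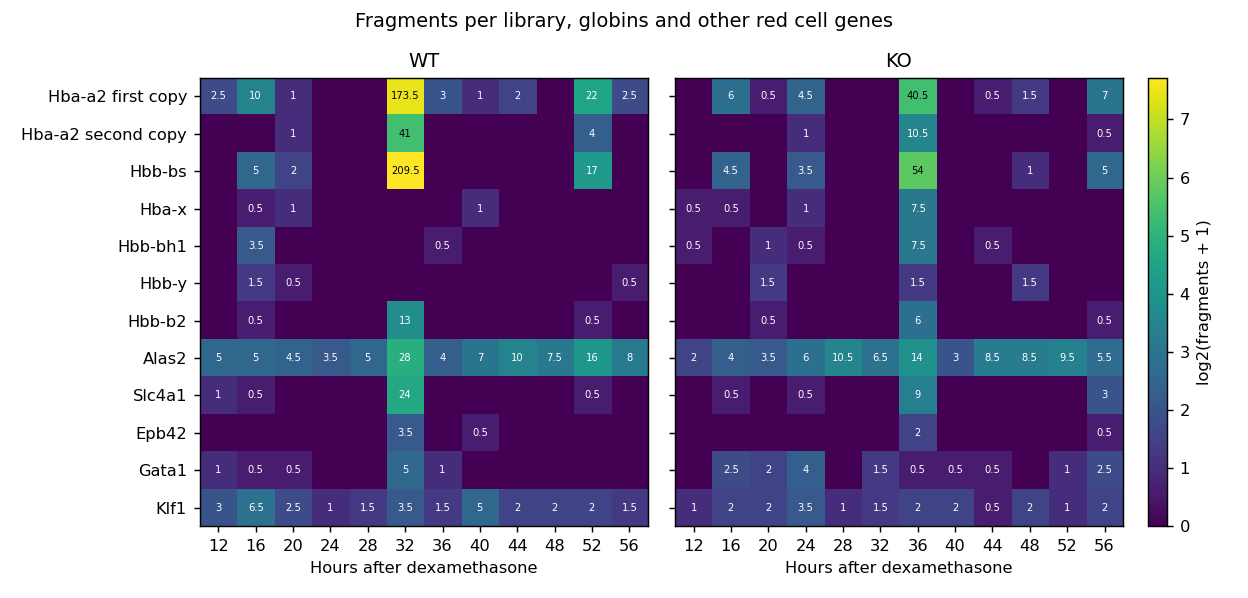
Fragments of the globin rows and of 5 other red cell genes (rows) in each library (columns, hours after dexamethasone), WT on the left and KO on the right. The number in a cell is the fragment count, empty cells are 0, and colour is log2(fragments + 1). The adult globin rows, Hbb-b2, Slc4a1 and Alas2 are highest in WT 32 h and in KO 36 h. The embryonic rows are at 0 in WT 32 h, and Klf1 is spread over all libraries.

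Counted over 4 lists of red cell genes outside the globins, 11 of 53 rows were highest of all WT libraries at 32 h (20.8%), where 5.68% of all genes with a value in WT were. In KO 17 of 53 rows were highest at 36 h (32.1%), where 15.2% of all genes were. No minimum level was set for these rows or for all genes. Some of the counted rows were near the detection limit, down to 0.5 fragment in each of these libraries. None of the 10 megakaryocyte and platelet, 9 endothelial, 10 yolk sac and 7 pluripotency markers was highest in WT 32 h or in KO 36 h, and of 10 macrophage and leukocyte markers 0 and 2 were. The summed RPKM of the yolk sac and visceral endoderm markers was 481 in WT 32 h and 264 in KO 36 h, within their ranges of 111 to 1262 and 126 to 1317. The summed macrophage markers were 480 in WT 32 h and 679 in KO 36 h, within ranges of 434 to 686 and 506 to 738. The part of the cell makeup of the embryoid bodies in the globin peaks was not tested.

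The genes that act beside the globins in red cells were mostly expressed in both genotypes, and a minority differed between them. Each list was read against the background of 11.2% of genes called higher and 14.7% called lower in KO, and many of these genes are also used in other cells. Markers of other cell types also differed between the genotypes. Higher in KO were 5 of 9 endothelial markers (median log2 difference 0.62), 4 of 10 macrophage and leukocyte markers (0.14) and 3 of 7 tested megakaryocyte and platelet markers (0.29), of which 1 more was lower. Their part in the values of the red cell lists was not tested. Of 9 tested erythroid transcription factors 4 were lower in KO and none was higher, with a median log2 difference of −0.11. Sox6, which silences embryonic beta-type globin in later red cells, had 1.34 ± 0.0793 RPKM in WT and 1.07 ± 0.125 in KO (log2 difference −0.30, SE 0.049, limma adjusted p = 1.09e-04). Foxo3, Klf2 and Ldb1 were also lower in KO, with log2 differences of −0.22, −0.20 and −0.11 (limma adjusted p = 0.00492, 0.0180 and 0.0191). Bcl11a, another silencer of embryonic globin, had a log2 difference of −0.25 (adjusted p = 0.235). Gata1 and Klf1 were under the minimum.

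Of 11 tested genes of heme synthesis and iron uptake none was called, with a median log2 difference of −0.0042. Tfrc, the transferrin receptor, was at 6.33 ± 1.06 RPKM in WT and 7.32 ± 1.07 in KO (adjusted p = 0.0733), and Alad, an enzyme of the pathway, at 11.7 ± 1.19 and 11.6 ± 1.12 (0.923). Of 8 tested membrane and surface genes 2 were higher and 1 was lower, with a median of −0.0058. Gypc, glycophorin C, was higher in KO with a log2 difference of 0.46 (limma adjusted p = 1.91e-05), as was Dmtn, dematin, with 0.24 (0.0229). Rhag, the Rh-associated glycoprotein, was lower, with −0.46 (0.0116). Of 6 tested other red cell genes only Cited4 was called, higher in KO by 0.67 (0.00193), and the median was 0.087.

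Of the globins outside the red cell clusters, Mb was higher and Cygb lower in KO, and Ngb was too low to test. Mb, myoglobin, which holds oxygen in muscle, ranged from 0.632 to 1.74 RPKM in WT with a median of 1.10, and from 1.32 to 4.43 in KO with a median of 2.77. KO was higher at 11 of 12 hours, the exception being 32 h. The means were 1.12 ± 0.317 RPKM in WT and 2.85 ± 1.12 in KO (SD, n = 12), and Mb was higher in KO with a log2 difference of 1.21 (SE 0.20, limma adjusted p = 1.07e-04). Cygb, cytoglobin, which is found in fibroblast-like cells, ranged from 13.2 to 20.1 RPKM in WT and from 10.2 to 18.0 in KO. KO was lower at 11 of 12 hours, again except at 32 h, and the ranges overlapped. The means were 16.6 ± 1.66 and 13.6 ± 2.53 RPKM (SD, n = 12), and Cygb was lower in KO with a log2 difference of −0.29 (SE 0.085, limma adjusted p = 0.0127). In the first 6 time points alone the log2 difference of Cygb was −0.29 (limma adjusted p = 0.230). In the last 6 time points it was −0.30 (0.0618), so the size stayed while the call was lost with fewer libraries. Neither gene was highest in KO 36 h, and in the WT 32 h library Mb was at 1.49 and Cygb at 15.3 RPKM, within their WT ranges. Ngb, neuroglobin, had 0.209 ± 0.0660 RPKM in WT and 0.220 ± 0.0678 in KO.

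**Figure D4:**
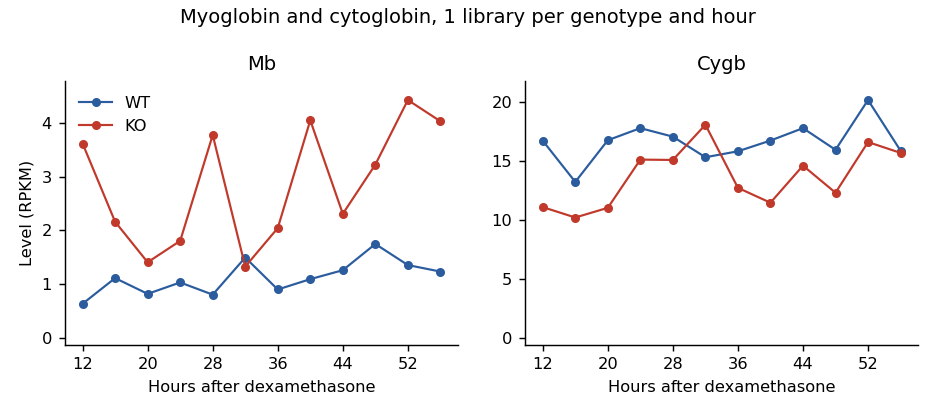
Level of Mb and Cygb in RPKM (y axes, each from 0) against hours after dexamethasone (x axis), where each point is 1 library, with WT in blue and KO in red. Mb is higher in KO at 11 of 12 hours and Cygb lower at 11 of 12, and neither shows the peaks of the red cell globins.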

How the data were processed

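Poly(A)-selected RNA of 24 libraries (12 WT, 12 KO) was sequenced as 101-base read pairs. The submitters' processing notes name bcl2fastq, Trimmomatic 0.36, STAR 2.5.4b, SAMtools and HOMER. The authors aligned them to GRCm38, discarded those mapped with a quality below 10, counted the rest on exons of UCSC known canonical genes and deposited RPKM for 33079 genes. Use of strand is not given in the sources used here. RPM and fragments were computed from RPKM, the exonic lengths and the library totals in the header. Because the deposited values are RPKM, no count test was used.

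Genes with a mean over 0.5 RPM in WT or KO (15112) entered moderated linear models of log2(RPKM + 0.1) in limma (version 3.58.1, under R 4.3.3). P-values were adjusted by the Benjamini-Hochberg method, and calls had an adjusted p under 0.05. KO was compared with WT without a block, and slopes and 24 h terms were fitted per genotype. Simulated data with known changes were used to check the fits. Permutation tests used 100000 permutations. Python (3.11.15) and its packages scipy (1.17.1), pandas (2.3.3), numpy (2.4.6) and matplotlib (3.10.9) served for the remaining values and the plots. Nothing says that libraries of a genotype came from separate differentiations, so p-values measure the spread between these libraries.

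The members and gene lists were chosen with earlier results of these data known. Named genes are the members, up to 4 genes of a list (smallest adjusted p and highest mean), the 5 genes most like each tested member, and genes said to be chosen after their values were seen, to which Bcl11a, Klf2, Nanog and Ngb belong. Promoters were matched by symbol to RefSeq, and transcript windows to GENCODE. A gene of the lists is counted but not reported here by name. The alternatives covered the pseudocount, the filter, quantile normalization, a trend in the variance, the time point as a block, early and late hours, permutation and sign-flip tests, and leaving out hours.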

Additional observations from a re-analysis of the deposited data

How the results depend on the processing

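No member was called under any alternative, with p values of at least 0.349 for the level and adjusted p values of at least 0.579 for time. The difference of Hbb-bs turned to 0.054 with a pseudocount of 0.01 and to 0.84 in the last 6 time points. It turned to 0.024 without WT 32 h and KO 36 h, an alternative chosen after seeing the data. That alternative also turned the slopes per 24 h of the first copy in KO (−0.025) and of Hbb-bs in WT (0.064), in KO (−0.043) and in their difference (−0.11), a pseudocount of 1 turned that of Hbb-bs in WT (0.012), and a pseudocount of 0.01 turned the slope difference of the first copy (0.021). No slope was called under any alternative.

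Leaving out 1 hour at a time, the log2 difference between KO and WT ranged from −0.0041 to 0.37 for Hba-x, from −1.04 to −0.040 for the first copy, from −0.65 to 0.19 for the second copy, from −0.68 to 0.54 for Hbb-bs, from 0.059 to 0.46 for Hbb-bh1 and from 0.0068 to 0.23 for Hbb-y. The slope per 24 h ranged from −0.41 to 0.50 in WT, −0.41 to 0.52 in KO and −0.66 to 0.82 in the difference for the first copy, and from −0.72 to 0.31, −0.31 to 0.44 and −0.62 to 1.07 for Hbb-bs. The amplitude ranged from 0.85 to 2.04 in WT and 0.21 to 1.5 in KO for the first copy, and from 0.23 to 2.01 and 0.080 to 1.60 for Hbb-bs. The number of genes called between genotypes ranged from 3113 to 3948. It was 1115 in the first 6 time points and 1903 in the last 6, against 3918, with fewer libraries in each. Genes with a slope numbered 278 (without 48 h) to 484 in WT and 293 (without 12 h) to 607 in KO, and those with a different slope 0 to 1. Genes with a rhythm numbered 0 (without 36 h) to 8 in WT and 7 to 12 in KO, and those with a different rhythm 0 to 1. The WT count of 7 was 4 without the filter and 2 without WT 32 h and KO 36 h.

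The time point as a replicate block gave 4212 called genes and left the members uncalled (adjusted p = 0.553 for the first copy and 0.919 for Hbb-bs). The labels do not say whether libraries of the same hour were cultured or prepared together. Their deviations correlated from −0.175 to 0.389 over 12 pairs, with a median of 0.18. Of the 12 WT libraries, 5 were closest to the KO library of their own hour. The depth limits all low values, since 3 fragments correspond to 0.221 to 0.368 RPKM of Hba-x and 0.235 to 0.390 RPKM of the Hba-a2 rows.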
